A study of Homo sapiens with 2 samples.

Results

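The positions described here are isolated adenosines (A) in nuclear-encoded transcripts of HEK-293T, an established human line of embryonic kidney origin: A positions whose immediate 5′ and 3′ neighbours on the transcript are both bases other than A. The deposited counts list A positions of each transcript strand, so a neighbour that is missing from the list of the same strand was read as a base other than A. A position was taken when it lay on chromosomes 1 to 22 or X, had at least 20 reads in both libraries, had neither adjacent position listed in either library, and had, within 10 nucleotides (nt) on each side, another listed position of the same minimum depth. The bracketing positions require covered transcript on both sides of the isolated A. In all, 121914 positions met the rule, 33.9% of the 359222 nuclear A positions that reached 20 reads in each library and 47.7% of the 255743 of these that were bracketed. The other bracketed positions fell into 52694 with an A listed on the 5′ side alone, 53280 with an A on the 3′ side alone and 27855 with an A on both sides. No position had a neighbour listed in 1 library and missing from the other. A further 52665 positions had neither neighbour listed but no bracket on both sides, and were not taken.

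The study compared mRNA of cells carrying a CIRTS-hADAR biosensor without and with the small molecule ABA. CIRTS is an engineered system that brings an effector protein to chosen RNAs, and hADAR is a human adenosine deaminase acting on RNA. Both groups are the same cell line with the same biosensor and differ by ABA; a group without the biosensor was not analysed here. How the biosensor was introduced, the ABA dose and the time of exposure are not given in the labels. Each condition had 1 library, so a difference between them has no replicate check, and every interval below covers counting error alone. A read spans several positions, and no molecular identifiers are named, so reads are not fully independent and the intervals are too narrow to that extent.

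ADAR enzymes turn adenosine into inosine in double-stranded RNA, and inosine is read as G by reverse transcriptase. They act unevenly on adenosines in different contexts. A G just 5′ of the target is known to be disfavoured, an A or U in that place is favoured over C or G, and a G just 3′ is often favoured. An isolated position has C, G or U on both sides, whereas a position with its 5′ neighbour listed has A there.

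Median depth at the isolated positions was 30 reads without ABA and 31 with ABA, and the deepest had 407 and 404 reads. They lay on both strands, 60284 on plus and 61630 on minus, in 13234 stretches of transcript that were separated by more than 100 nt without a listed position. For rates, 37 isolated positions were left out because G, C or T made up at least 35% of their reads in either library, as an inherited variant could; 31 of these were G. The remaining 121877 positions held about equal depth in the libraries, with 4255096 A or G reads without ABA and 4372025 with ABA. The rate of a change is the number of reads with the changed base over the reads with A or that base, summed over positions, with an exact (Clopper-Pearson) 95% interval. Ratios between libraries carry an exact conditional binomial 95% interval, and ratios of ratios and differences in percentage points a normal approximation.

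The letters known around some isolated positions are given here by hg19 position and strand. They are a part of the 20 sites named below. Those were chosen for their rise, fall, p or number of G reads, so they are extremes and not typical isolated positions. Each run of 21 letters reads 5′ to 3′ on the transcript, with the isolated A in capitals in the middle, a for another listed A, t for a position listed on the opposite strand, which is a T there, and n for a base not known from the files.

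Chromosome 6 position 74228485, minus strand: annnnannnnAnnannaannn
Chromosome 11 position 62339100, minus strand: nanntnntnnAntnnntnann
Chromosome 12 position 6647015, plus strand: ntnntnaannAnnnntnnnan
Chromosome 1 position 45243393, plus strand: natnnanannAnannntannn
Chromosome 21 position 46624526, plus strand: nannnnannnAnnnnnnnann
Chromosome 21 position 46602538, plus strand: aannnnnnnnAnannaanaaa
Chromosome 19 position 5691580, plus strand: aannnnnannAnntnannaan
Chromosome 3 position 49397323, minus strand: nnnnnnaannAnnnnnnaann

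A-to-G mismatches were more frequent at isolated positions in the ABA library. Without ABA 3082 of 4255096 reads were G, 0.0724% (0.0699–0.0750). With ABA it was 5824 of 4372025, 0.133% (0.130–0.137). The ratio was 1.84 (1.76–1.92) and the difference 0.0608 percentage points. The other mismatches at the same positions differed less between the libraries. A-to-C mismatches stood at 0.0135% (0.0124–0.0146) without ABA and 0.0148% (0.0137–0.0160) with ABA, a ratio of 1.10 (0.981–1.23). For A-to-T the rates were 0.00731% and 0.00689% and their ratio 0.943 (0.802–1.11). The intervals of both background ratios include 1 and lie below that of A-to-G. At a minimum of 10 reads the A-to-C interval left out 1, with a ratio of 1.17 (1.07–1.28), as it did without brackets, with 1.11 (1.01–1.23). Against the sum of the C and T mismatches, which was 0.0208% without ABA and 0.0217% with ABA, the A-to-G rate was the larger in both libraries.

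The mismatches were thinly spread. Of the 121877 isolated positions, 2786 (2.29%) had any G read without ABA and 4633 (3.80%) with ABA, and 114911 had none in either library. Most positions with a G read had just 1: 2623 without ABA and 4066 with ABA. Those with 3 or more G reads numbered 52 and 203. The share of G reads was higher with ABA at 4429 positions, lower at 2530 and equal at 114918.

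The kind of neighbour went with different A-to-G ratios, and the isolated positions fell between the classes with an A on one side. Positions with an A on the 5′ side had 0.0795% (0.0755–0.0836) without ABA and 0.174% (0.169–0.181) with ABA, a ratio of 2.19 (2.06–2.33). Positions with an A on the 3′ side had 0.0630% (0.0595–0.0667) and 0.0795% (0.0756–0.0836), a ratio of 1.26 (1.17–1.36). Positions with an A on both sides had the lowest rates, 0.0497% and 0.0692%, with a ratio of 1.39 (1.25–1.56). Over all deep nuclear positions, 359139 in number, the ratio was 1.86 (1.81–1.91), close to that of the isolated positions, which make up a large part of them.

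**Figure D1:**
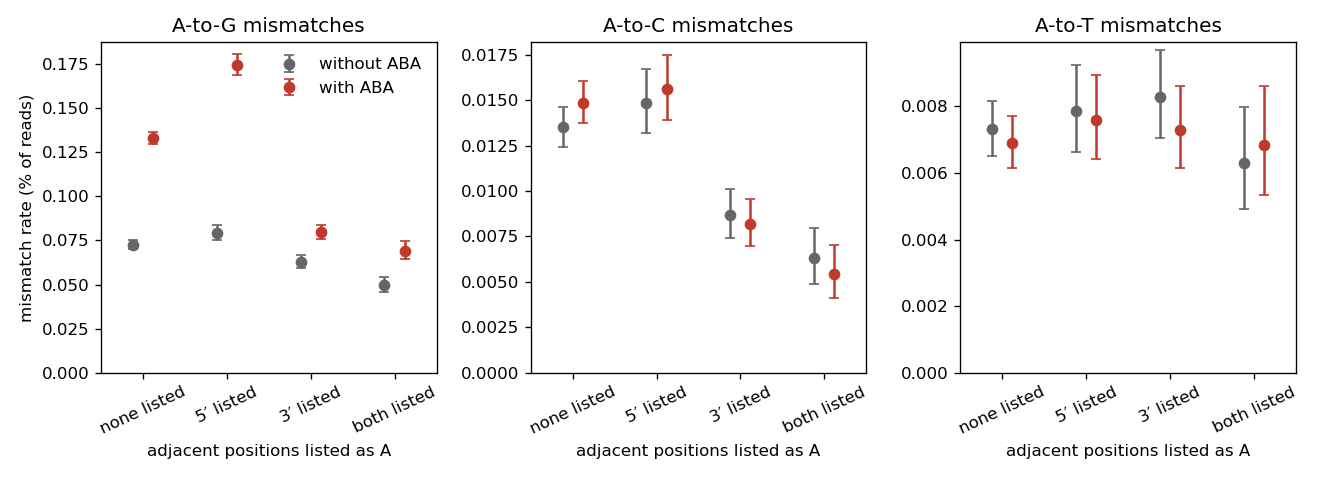
Rates of the mismatches to G, C and T (percent of reads, a separate axis from 0 in each panel) without ABA (grey) and with ABA (red) at positions with no adjacent A listed, a 5′ A, a 3′ A or both. Points are pooled rates of 1 library each and bars are exact 95% intervals for counting error; for A-to-G the 2 libraries are far apart at isolated positions (0.0724% and 0.133%) and nearer each other with a 3′ A (0.0630% and 0.0795%).

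Without ABA the isolated positions differed little from those with a 5′ A, and the gap was wider with ABA. The rate at isolated positions was 0.911 times (0.856–0.970) that of positions with a 5′ A without ABA and 0.764 times (0.732–0.797) with ABA. With the variant-like positions kept, the value without ABA was 1.02 (0.964–1.08), so that its direction rested on leaving them out. The ratio of the 2 ratios between libraries, isolated over 5′ A, was 0.838 (0.777–0.903). In percentage points the difference between libraries was 0.0608 at isolated positions and 0.0950 with a 5′ A, and the first minus the second was -0.0342 (-0.0426 to -0.0258).

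Against positions with a 3′ A the order was the other way. Isolated positions had 1.15 times (1.07–1.23) their rate without ABA and 1.68 times (1.58–1.77) with ABA. The ratio of ratios was 1.46 (1.33–1.59). The difference between libraries was 0.0165 percentage points with a 3′ A, which is 0.0443 (0.0374–0.0511) less than at isolated positions. Against positions with an A on both sides the ratio of ratios was 1.32 (1.17–1.49). The classes thus stood in the order 5′ A, isolated, 3′ A by their ratio between libraries, and the intervals of neighbouring classes in that order do not overlap.

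The A-to-C background was also unequal between classes. Without ABA it was 0.0149% with a 5′ A and 0.00871% with a 3′ A, so that isolated positions had 1.55 times (1.30–1.85) the A-to-C rate of positions with a 3′ A. With ABA this figure was 1.81 (1.52–2.17), and the ratio of ratios, 1.17 (0.916–1.5), included 1. Isolated positions over those with a 5′ A gave 0.908 (0.785–1.05) and 0.95 (0.826–1.09) for A-to-C. For A-to-T the intervals included 1: isolated over 5′ A was 0.930 (0.762–1.14) without ABA, and isolated over 3′ A was 0.883 (0.727–1.08). A difference between classes in 1 library is therefore found in A-to-C mismatches too. Over all positions of a class, the intervals of the C and T ratios between libraries include 1 in each class.

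**Figure D2:**
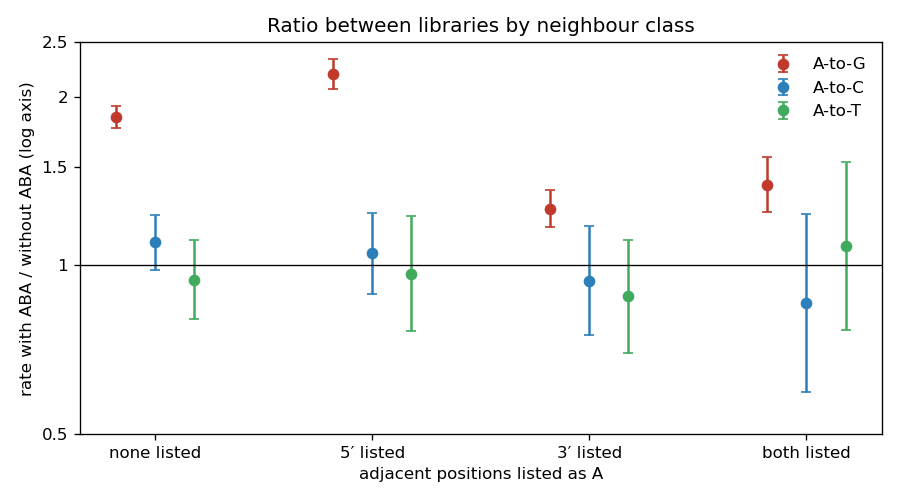
Ratio of the mismatch rate with ABA to that without ABA (log axis) for A-to-G (red), A-to-C (blue) and A-to-T (green) in the 4 classes of neighbour. Bars are exact 95% intervals for counting error; the A-to-G ratio is 2.19 with a 5′ A, 1.84 at isolated positions and 1.26 with a 3′ A, and the bars of C and T cross the line at 1.

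Isolated positions and positions with 1 listed neighbour often lie in the same transcript, so the comparison was also made within stretches of transcript. With classes compared inside each stretch (Mantel-Haenszel ratios), isolated over 5′ A was 0.925 (0.867–0.986) without ABA and 0.723 (0.692–0.755) with ABA, and the ratio of ratios was 0.782 (0.723–0.845) over 10772 stretches. Isolated over 3′ A was 1.19 (1.11–1.28) and 1.64 (1.55–1.74), with a ratio of ratios of 1.37 (1.26–1.51) over 10851 stretches. Within 4 bins of depth the ratios of ratios were 0.837 (0.776–0.902) and 1.46 (1.34–1.59). The order of the classes was the same within stretches and within depth bins as over all positions.

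The chromosomes showed the same direction at isolated positions. On 23 of 23 chromosomes the A-to-G rate with ABA was above that without, the A-to-C rate on 13 and the A-to-T rate on 7. The ratio of isolated positions had a median of 1.67 over chromosomes. It was 1.17 (0.677–2.02) on chromosome 13, with 978 isolated positions, and 2.48 (2.14–2.88) on chromosome 19, with 8256. The interval on chromosome 13 includes 1, as do those on chromosomes 4, 10 and 18. Their ratios were 1.39 (0.976–1.99), 1.37 (0.984–1.92) and 1.65 (0.904–3.09). The highest isolated ratio was 3.22 (2.41–4.36) on chromosome 21. The isolated ratio was below that of positions with a 5′ A on 20 of 23 chromosomes and above that of positions with a 3′ A on 21 of 23. Positions with a 5′ A had a higher ratio than those with a 3′ A on all 23.

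**Figure D3:**
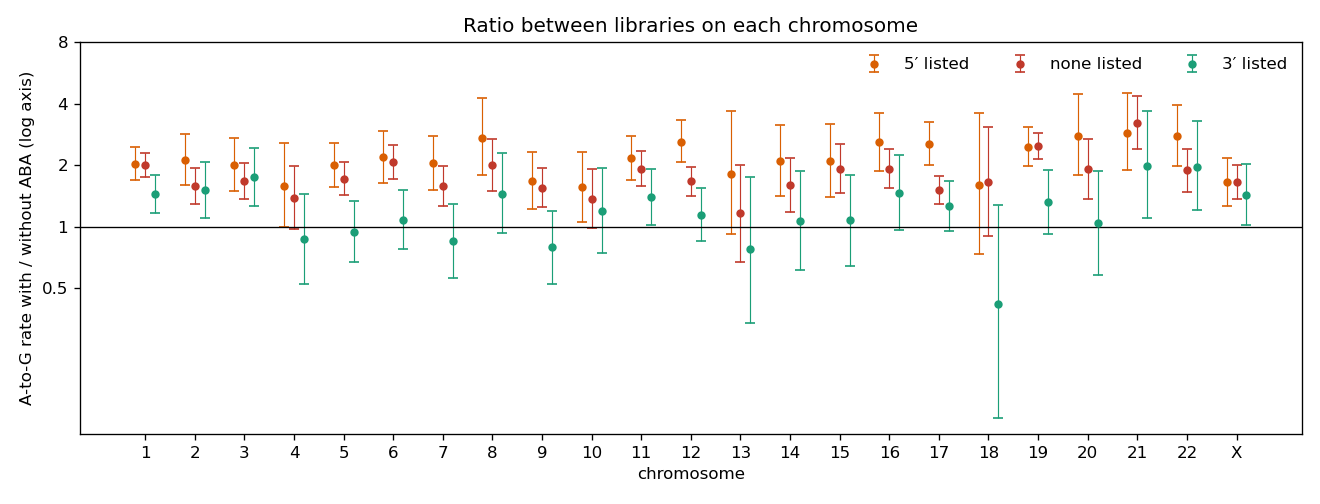
Ratio of the A-to-G rate with ABA to that without ABA (log axis) on each of 23 chromosomes for positions with a 5′ A (orange), isolated positions (red) and positions with a 3′ A (green), with exact 95% intervals for counting error. All 23 isolated points lie above 1, from 1.17 on chromosome 13 to 3.22 on chromosome 21.

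The chromosome 21 value rested on 1 locus of the plus strand, the one that held the highest rates in earlier work on these data. Its 140 isolated positions had 0.212% (0.129–0.327) without ABA, from 20 of 9454 reads, and with ABA 1.04% (0.884–1.22), from 154 of 14786 reads, a ratio of 4.92 (3.08–8.29). Whether some reads at this locus come from the biosensor construct itself was not tested. The isolated positions elsewhere on chromosome 21 had a ratio of 1.53 (1.02–2.34). Without the locus the ratio over all isolated positions was 1.8 (1.73–1.89). The locus therefore moved the chromosome's value and little of the whole.

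Isolated positions also differed among themselves by how far away the nearest A with at least 20 reads in both libraries lay. A listed A of lower depth was passed over for this distance. With the nearest A 2 nt away on the 5′ side, one base between, 36953 positions had 0.0624% (0.0582–0.0669) without ABA and 0.0964% (0.0911–0.102) with ABA, a ratio of 1.54 (1.41–1.69). At 3 nt the ratio was 1.75 (1.60–1.91), and at 4 to 10 nt it was 2.04 (1.91–2.17), from 0.0772% and 0.157% at 56162 positions. A gap of 2 nt on the 5′ side thus went with a lower ratio than longer gaps, which together, at 3 to 10 nt, had 1.94. The ratio of ratios was 0.796 (0.719–0.882).

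On the 3′ side no such step was found. With the nearest A 2 nt away, 37352 positions had 0.0729% and 0.138%, a ratio of 1.90 (1.75–2.06), against 1.81 (1.72–1.91) at 3 to 10 nt. The ratio of ratios, 1.05 (0.951–1.15), includes 1. For A-to-C the 3′ gap of 2 nt had a ratio of ratios of 0.718 (0.545–0.945), and its rate was 0.737 times (0.604–0.893) that of longer gaps without ABA and 0.529 times (0.430–0.646) with ABA. The background was thus not flat over these gaps, and the A-to-C interval that leaves out 1 is 1 of 12 for C and T over neighbour classes and gaps. The A-to-C ratio between libraries at a 3′ gap of 3 to 10 nt was 1.18 (1.04–1.34), which also leaves out 1.

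**Figure D4:**
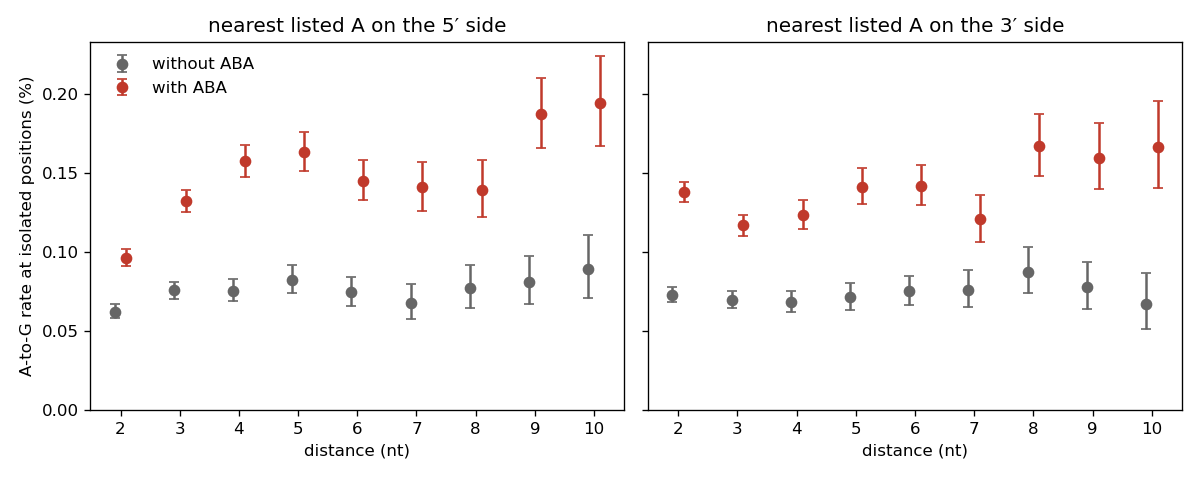
A-to-G rate (percent of reads) at isolated positions by the distance in nt to the nearest A with at least 20 reads in both libraries. The 5′ side is on the left and the 3′ side on the right. Grey is without ABA, red is with ABA, and bars are exact 95% intervals for counting error. On the 5′ side the rate with ABA is 0.0964% at 2 nt and 0.158% at 4 nt, while without ABA it is 0.0624% and 0.0756%.

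The number of listed A positions 2 to 10 nt away, both sides together, had a median of 5 and ran from 2 to 17. With 2 to 3 of them, 20107 isolated positions had an A-to-G rate of 0.0773% (0.0710–0.0840) without ABA and 0.174% (0.165–0.184) with ABA, a ratio of 2.25 (2.04–2.49). With 4 to 5 the ratio was 1.90 (1.77–2.04), and with 6 to 7 it was 1.67 (1.54–1.81). With 8 or more, 18893 positions had 0.0686% (0.0624–0.0753) and 0.102% (0.0944–0.110), a ratio of 1.49 (1.32–1.68). The ratio was thus lower in each step towards A-rich surroundings. The A-to-C ratio was 1.11 (0.895–1.37), 1.24 (1.02–1.5), 0.940 (0.741–1.19) and 0.985 (0.692–1.40) in the same order, and with 4 to 5 listed positions its interval leaves out 1. Most of the A-to-G difference lay in the ABA library, where the rate went from 0.174% to 0.102%. Less lay in the library without ABA, where the A-to-G rate went from 0.0773% to 0.0686%. The A-to-C rate was also lower with 8 or more listed positions than with 2 to 3, in both libraries. It was 0.02287% with 2 to 3 and 0.01047% with 8 or more without ABA, and 0.02535% and 0.01032% with ABA.

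For A-to-G the order of the neighbour classes by ratio was the same in each of these 4 bins. Positions with a 5′ A had ratios of 2.89, 2.2, 2.09 and 1.70 from the fewest to the most listed A positions, and positions with a 3′ A had 1.37, 1.39, 1.16 and 1.11. The ratio of ratios of isolated over 5′ A was 0.780 (0.652–0.933), 0.864 (0.763–0.977), 0.80 (0.697–0.918) and 0.871 (0.717–1.06) in the same order, so the last interval includes 1. For isolated over 3′ A it was 1.64 (1.31–2.06), 1.37 (1.19–1.58), 1.44 (1.23–1.69) and 1.34 (1.09–1.66). The A-to-C background was not flat over these bins. With a 3′ A and 2 to 3 listed positions its ratio between libraries was 1.979 (1.116–3.625). The A-to-C ratio of ratios of isolated over 3′ A was 1.629 (1.061–2.502) with 4 to 5 listed positions. With 2 to 3 it was 0.5603 (0.3116–1.007), on the other side of 1. The other A-to-C intervals of the 5′ A and 3′ A classes, and of isolated over either, include 1.

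A 5′ gap of 2 nt is more frequent where A positions are dense, so the gap was also read within these bins. The ratios at a 5′ gap of 2 nt against 3 to 10 nt were 1.83 and 2.33 with 2 to 3 listed positions, 1.71 and 1.95 with 4 to 5, 1.51 and 1.74 with 6 to 7, and 1.26 and 1.67 with 8 or more. The shorter gap had the lower ratio in each bin. The ratios of ratios were 0.786 (0.594–1.04), 0.874 (0.733–1.04), 0.870 (0.725–1.04) and 0.751 (0.589–0.958). Within bins, then, only the A-to-G interval of the densest surroundings leaves out 1. For A-to-C the ratio of ratios of the gaps with 6 to 7 listed positions was 1.61 (1.01–2.58), and the other intervals include 1.

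**Figure D5:**
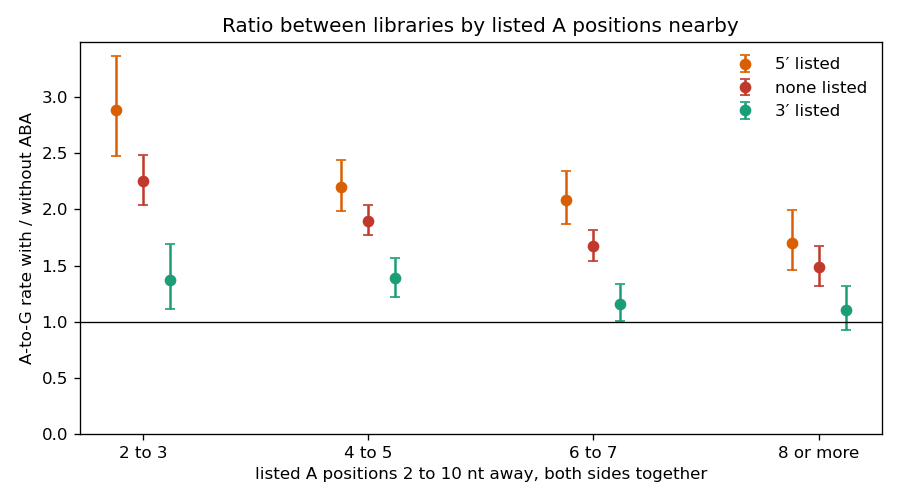
Ratio of the A-to-G rate with ABA to that without ABA (axis from 0) by the number of listed A positions 2 to 10 nt away, for positions with a 5′ A (orange), isolated positions (red) and positions with a 3′ A (green), bars being exact 95% intervals for counting error. Isolated positions go from 2.25 with 2 to 3 listed positions to 1.49 with 8 or more, and stay between the other classes in each bin.

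Where both strands of a locus were covered, the opposite strand's list was used to tell a T (U in the RNA) from a C or G beside the isolated A. A neighbour not listed there was read as C or G, although a T below the read cutoff would be read so too. An isolated A counted as covered when the opposite strand had a listed position within 10 nt on each side, at any listed depth in either library. This held for 4601 isolated positions (3.78%) in 898 stretches, 41 of them at the chromosome 21 locus. They were deeper than most, with a median of 57 reads in both libraries, and had higher rates: 0.135% without ABA and 0.244% with ABA, a ratio of 1.81 (1.61–2.04). At the 117276 isolated positions without such cover the ratio was 1.85 (1.76–1.94). Positions covered on both strands thus had about the same ratio at a higher level.

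A T just 5′ of the isolated A went with a higher ratio over both strands together, but not on each. The 734 positions with a 5′ T had 0.136% (0.107–0.171) without ABA and 0.338% (0.291–0.391) with ABA, a ratio of 2.48 (1.89–3.29). The 3867 with a 5′ C or G had 0.135% (0.121–0.149) and 0.225% (0.208–0.244), a ratio of 1.67 (1.47–1.91). The ratio of ratios was 1.48 (1.10–2.0). On the minus strand it was 1.92 (1.30–2.84), and on the plus strand 1.0 (0.629–1.60), so that the difference rested on the minus strand. The stretch with the most G reads held 5.95% of those with ABA at positions with a 5′ T. For A-to-C the ratio of ratios was 1.83 (0.734–4.58), from 8 and 14 C reads with a 5′ T, and includes 1. The A-to-C rate with a 5′ T was 0.422 times (0.177–0.866) the other without ABA. With ABA it was 0.774 times (0.407–1.37).

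A T just 3′ of the isolated A went with lower rates in both libraries over all covered positions. The 1568 positions with a 3′ T had 0.106% (0.0882–0.127) without ABA and 0.163% (0.140–0.188) with ABA, a ratio of 1.53 (1.21–1.94). The 3033 with a 3′ C or G had 0.150% (0.134–0.168) and 0.287% (0.265–0.311), a ratio of 1.91 (1.67–2.19). The rate with a 3′ T was 0.706 times (0.568–0.872) the other without ABA and 0.567 times (0.479–0.669) with ABA, and the ratio of ratios, 0.803 (0.616–1.05), includes 1. The rates with a 3′ T were lower on both strands, with 0.509 times (0.386–0.663) on plus and 0.607 times (0.488–0.752) on minus with ABA. A-to-C mismatches were lower with a 3′ T as well, at 0.344 times (0.189–0.592) without ABA and 0.528 times (0.317–0.847) with ABA. Where the opposite strand was held to brackets of 20 reads, which left 101 positions with a 3′ T and 199 without, the A-to-G rate with a 3′ T was 0.182% against 0.115% without ABA, 1.58 times (0.831–2.96), so that the direction turned, and 0.560 times (0.328–0.919) with ABA.

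Taking both sides, the highest rate with ABA was at the 459 positions with a 5′ T and a 3′ C or G, 0.138% (0.102–0.184) without ABA and 0.390% (0.327–0.462) with ABA, a ratio of 2.82 (2.01–4.02). The lowest in both libraries was at the 1293 positions with a 5′ C or G and a 3′ T, 0.10% (0.0809–0.123) and 0.143% (0.12–0.170), a ratio of 1.43 (1.09–1.88). The 275 positions with T on both sides had a ratio of 1.89 (1.17–3.12), and the 2574 with T on neither side 1.75 (1.51–2.04), with the highest rate without ABA, 0.153%. The intervals of the highest and the lowest ratio do not overlap, and those of the other combinations overlap both.

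The rates depended on depth far more than the ratio did. Isolated positions with a mean depth of 20 to 29 reads had 0.0452% without ABA and 0.0845% with ABA, a ratio of 1.87 (1.70–2.06). Those at 30 to 49 reads had 0.0622% and 0.114%, a ratio of 1.83 (1.71–1.98), and those at 50 to 99 reads 0.112% and 0.197%, a ratio of 1.76 (1.61–1.91). At 100 reads or more, 1900 positions had 0.190% and 0.361%, a ratio of 1.90 (1.70–2.12). The A-to-C rate without ABA also differed with depth, from 0.00846% at 20 to 29 reads to 0.0391% at 100 or more. The levels are therefore tied to depth for more than 1 kind of mismatch, and the 4 A-to-G ratios have overlapping intervals.

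By strand, the isolated ratio was 1.94 (1.82–2.07) on plus, with 0.0694% and 0.135%, and 1.75 (1.65–1.86) on minus, with 0.0753% and 0.132%. Near the depth limit, positions whose shallower library had 20 or 21 reads had 0.0515% and 0.0785%, a ratio of 1.52. Positions just outside, at 18 or 19 reads, had 0.0368% and 0.0658%, a ratio of 1.79.

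Single isolated positions were compared by a two-sided Fisher's exact test of G against A reads, adjusted by Benjamini-Hochberg over all 359090 nuclear positions that had 20 or more A or G reads in each library. The test compares these 2 libraries and not the conditions. None of the 121896 isolated positions tested had an adjusted p under 0.05 with a share higher or lower by 10 percentage points or more. The same held for all positions tested, 0% in each direction. At median depths of 30 and 31 reads, the adjustment over 359090 positions leaves calls to very large changes only. The absence of calls therefore does not show that no position changed. The lowest exact p of an isolated position, 0.000191 at a difference of 14.6 points, was not enough for a call. By unadjusted exact p under 0.05, 18 isolated positions (0.0148%) were higher with ABA, against 0.0175% of all positions tested, and 2 were lower (0.00164%), against 0.000557%. By size alone, 31 isolated positions (0.0254%) were higher by at least 10 points, against 0.0234% of all positions tested, and 2 (0.00164%) were lower, against 0.00167%. The counts of isolated positions higher or lower by size were thus near the background of all positions. They moved with the minimum depth, with 257 higher at 10 reads and 14 at 30 reads.

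A position was counted as edited when 3 or more of its reads were G and these made up at least 10%, unless it reached 95% in both libraries. Of the isolated positions, 31 were edited without ABA (0.0254%), against 0.0181% of all positions tested, and 62 with ABA (0.0509%), against 0.0429%. Of these, 27 were edited in both libraries, 12 of them at 35% or more in both, as a variant could be, 35 with ABA alone and 4 without ABA alone. The 31 positions higher by at least 10 points lay on 14 chromosomes, 4 of them at the chromosome 21 locus and 1 on chromosome 19. Without ABA 15 of them had no G read. Over all 31, which were chosen for this difference, 0 of 1189 A or C reads without ABA and 1 of 1230 with ABA were C. No read was T. Over all isolated positions the rates with ABA were 0.0148% for C and 0.00689% for T. So few reads would hold almost none at those rates, and the near absence does not set the 31 apart.

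The isolated position with the lowest p was on chromosome 6 (74228485, minus strand). It had 3 G of 110 A or G reads without ABA, 2.73% (0.566–7.76), and in the ABA library 21 of 121, 17.4% (11.1–25.3; exact p = 0.000191, adjusted p = 1). Its nearest listed A lay 5 nt away on the 5′ side and 3 nt away on the 3′ side. No C or T read was counted there in either library.

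Other isolated positions had no G read without ABA. On chromosome 11 (62339100, minus strand) 0 of 57 reads were G without ABA, which allows a share of up to 5.26% by a floor of 3 reads, and in the ABA library 12 of 73, 16.4% (8.79–27.0; exact p = 0.00113). On chromosome 12 (6647015, plus strand) there were 0 of 76 and 12 of 103, 11.7% (6.17–19.5; exact p = 0.00139). The largest difference by size was on chromosome 1 (212792997, plus strand), with no G among 27 reads without ABA, and with ABA 5 among 25, 20% (6.83–40.7; exact p = 0.0204), at the low end of the depths used. The adjusted p of each was 1. At a deeper position of chromosome 1 (45243393, plus strand) 1 of 169 reads was G without ABA, and in the ABA library 10 of 155, 6.45% (3.14–11.5; exact p = 0.00409).

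At the chromosome 21 locus, position 46602538 had 6 G among 63 reads without ABA, 9.52% (3.58–19.6), and in the ABA library 26 among 97, 26.8% (18.3–36.8; exact p = 0.00833). Position 46624526 had 2 of 75 and 21 of 144, 2.67% and 14.6% (exact p = 0.00502). Both were among the 5 isolated positions with the most G reads under 35% in both libraries. So was chromosome 19 position 5691580, where G made up 6.47% (3.27–11.3) of 170 reads without ABA, 11 in number, and 13.1% (8.17–19.5) of 153 with ABA, 20 in number (exact p = 0.0577). So was position 133012763 of chromosome 2, minus strand, with 10 of 211 and 13 of 216 reads, 4.74% and 6.02% (exact p = 0.669). The libraries overlap within counting error at these last positions.

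Among the 10 largest differences, 3 were at positions that were above 40% without ABA. Position 220321023 of chromosome 1 had 15 of 37 reads and 22 of 37, position 224633 of chromosome 5 had 13 of 29 and 19 of 30, and position 167758901 of chromosome 1 had 13 of 29 and 13 of 22. Their exact p-values ran from 0.163 to 0.400. The remaining 3 named for size, on chromosomes 16, 4 and 5, had 5 of 27, 6 of 36 and 3 of 22 G reads with ABA and at most 1 without ABA.

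Few isolated positions were lower with ABA by at least 10 points, though 2530 had a lower share of G reads by any amount. The largest fall by size was on chromosome 3 (49397323, minus strand), with 8 G among 63 reads without ABA, 12.7% (5.64–23.5). In the ABA library there was none among 57, 0% (0–6.27; exact p = 0.00658, adjusted p = 1), where the floor is 5.26%. Next came position 65497682 of chromosome 2, with 17 of 44 and 9 of 34 reads (exact p = 0.335). The other named positions lower with ABA, on chromosomes 4, 5 and 6, differed by less than 10 points, with exact p-values from 0.0947 to 0.501.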

How the data were processed

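mRNA of HEK-293T cells was sequenced in 2 libraries, 1 without and 1 with ABA. Reads were trimmed with cutadapt and aligned with HISAT2 to hg19, per the submitters' processing notes; versions and the base counter are not given in the sources used here. The authors deposited raw counts of each base per listed position, with a single base read cutoff of 5 per the file headers, and the lowest depth found was 6. Counts of the minus strand were read as their complement. At 15 isolated positions without ABA and 18 with ABA the deposited depth exceeded the sum of the 4 bases. Nuclear positions listed numbered 4070751 with 50748953 reads without ABA and 3510746 with 44914317 reads with ABA.

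Rates, intervals, Mantel-Haenszel ratios and Fisher's exact tests were computed with Python 3.11.15, numpy 2.4.6, pandas 2.3.3 and scipy 1.17.1, and were tested on simulated data. Figures were drawn with matplotlib 3.10.9. Neighbours were taken on the transcript, and brackets from 2 to 10 nt for all classes. A floor of 3 reads was used for shares of 0. Positions with fewer than 20 A or G reads in a library, 18 isolated ones, stayed out of the site test. Sites were named by rule: as none was called, the 10 largest rises, the 5 largest falls, the 5 lowest p-values and the 5 positions under 35% with most G reads. The members, classes, the chromosome 21 locus and the alternatives were chosen with earlier results of these data known. No genome or annotation of hg19 was used here, so C and G neighbours were not told apart and genes were not named.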

Additional observations from a re-analysis of the deposited data

Results flagged for a closer look

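Isolated positions of firefly luciferase RNA, a reporter outside the nuclear comparison, had an A-to-G rate above that of the library without ABA. At 208 such positions, chosen by the same rule, 20 of 10948 reads were G without ABA, 0.183% (0.112–0.282), and 102 of 13663 with ABA, 0.746% (0.609–0.906), a ratio of 4.09 (2.51–6.97). A-to-C reads there numbered 3 and 2.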

How the results depend on the processing

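Of 221 ratios recomputed under other settings, 207 stayed within the interval of the reported value and 4 crossed to the other side of 1. Of these, 3 were the A-to-T ratio of isolated positions, whose interval includes 1: it was 1.02 without brackets, 1.03 on minus and 1.003 as a mean of shares. The other was the rate of isolated positions over 5′ A without ABA, which was 1.02 (0.964–1.08) with variant-like positions kept. Keeping them also gave an A-to-G ratio of 1.65 at isolated positions, 0.820 for isolated over 5′ A with ABA, 1.38 and 1.83 for isolated over 3′ A without and with ABA, and a ratio of ratios of 1.32 against 3′ A. The A-to-G ratio of isolated positions was 1.94 without brackets, 1.94 on plus and 1.75 on minus. Isolated over 5′ A with ABA was 0.723 within stretches. The A-to-C ratio of isolated positions left out 1 at a minimum of 10 reads, 1.17 (1.07–1.28), and without brackets, 1.11 (1.01–1.23). The ratio of ratios of isolated over 5′ A ran from 0.782 to 0.870 over its 21 alternatives. Under alternatives added after the data were seen, the ratio of ratios of the 5′ gap was 0.716 at a minimum of 50 reads. That of a 5′ T was 1.0 on plus and 2.06 (0.720–5.90) with opposite-strand brackets of 20 reads, where that of a 3′ T was 0.355 (0.166–0.761), from 49 positions with a 5′ T and 101 with a 3′ T. With these brackets the rate with a 3′ T without ABA was 1.58 times (0.831–2.96) the other, so its direction turned. Counts of single sites moved most. At a minimum of 10 reads 257 isolated positions were higher and 73 lower by 10 points, and 98 and 148 were edited without and with ABA. At 30 reads 14 were higher, and 14 and 31 edited. At 50 reads 8 were higher, 1 lower, and 4 and 13 edited. At 5 points 252 were higher and 50 lower, and at 20 points 1 and 0. Edited positions with ABA numbered 133 at a share of 5% and 22 at 20%. Without variant-like positions 1 was lower and 15 were edited without ABA. Thinned to equal depth, 5 were lower. By unadjusted p with a change of 10 points 8 were higher and 1 lower. The 20 named sites kept their direction in 40 values, thinned or over all 4 bases. Taking a neighbour listed in either library gave the reported values, as no position had one listed in 1 library alone. Neighbours held to 20 reads, or brackets from 1 nt, cannot change the ratios of isolated positions between libraries. The 207 values within their intervals therefore include some that could not move. A depth of 20 to 30 reads sets a single share within wide limits. No paired analysis was possible because each condition had 1 library.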

Other observations

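In firefly RNA the 67 positions with a 5′ A had a ratio of 3.21 (1.64–6.89) and the 68 with a 3′ A had 2.28 (0.987–5.91), so that the intervals of the classes overlap that of isolated positions. In renilla luciferase RNA 96 isolated positions had 8 of 5195 and 21 of 6269 G reads, a ratio of 2.17 (0.926–5.68). C reads there numbered 0 of 5187 without ABA and 5 of 6253 with ABA. The 41 renilla positions with a 5′ A had a ratio of 1.05 (0.460–2.465) and those with a 3′ A 1.88 (0.526–8.37). The nuclear order of the classes was thus not found there, and the intervals overlap. In mitochondrial RNA 1752 isolated positions had an A-to-G rate of 0.103% (0.0849–0.123) without ABA and 0.126% (0.107–0.147) with ABA, a ratio of 1.23 (0.957–1.57). There the positions with a 5′ A had 0.992 (0.685–1.44) and those with a 3′ A 1.37 (0.937–2.01). At the chromosome 21 locus the 37 positions with a 5′ A had 0.312% and 1.56%, a ratio of 5.01 (2.39–12.1). The 40 with a 3′ A had 1 of 2734 and 20 of 4127 G reads, a ratio of 13.25 (2.12–549) that rests on 1 G read without ABA. The nuclear order of the classes was thus not found at the locus either, and the intervals overlap.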
